A study of Mus musculus with 15 samples.

Results

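Glycolysis and glycogen metabolism in mouse skeletal muscle was followed through 36 listed genes that take up glucose, store it as glycogen, release it, break it down to pyruvate and exchange lactate. The genes were chosen by symbol, and those with a mean of 10 or more normalized counts over the 15 samples were kept. All 36 symbols passed. They correspond to 37 of the 55536 gene records in the tables, because Aldoa has 2 records (ENSMUSG00000030695 and ENSMUSG00000114515). The lowest means were 17 for Aldoc and 23.4 for the second Aldoa record, and no listed gene fell below 10.

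The RNA came from skeletal muscle of male mice aged 2 months, with 5 samples in each of 3 groups. Controls were wild type. The knockout group is labelled as lacking PdgfrB, a receptor for platelet-derived growth factor, under a myogenin-specific driver, and the D489V group as carrying a constitutively active PdgfrB under the same kind of driver. Myogenin is a transcription factor of differentiating muscle cells, so the alleles are directed to the muscle lineage, while the sequenced tissue also holds vessels, nerve, fat and blood. Which muscle was taken, the driver construct, the strain, the litter and any batch are not given in the sources used here. In such bulk tissue, fewer cells of a type and less RNA per cell cannot be told apart.

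Muscle stores glucose as glycogen and breaks it down during contraction. Glucose enters through the transporters Slc2a1 and Slc2a4 and is phosphorylated by hexokinase. It can then be built into glycogen or passed through phosphofructokinase, aldolase and the later glycolytic enzymes to pyruvate and lactate. Several steps have a form enriched in muscle (Pfkm, Pgam2, Eno3, Pygm) beside a form found in many tissues (Pfkp, Pgam1, Eno1). Phosphofructokinase is switched on by fructose 2,6-bisphosphate, which the Pfkfb enzymes make and degrade.

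Normalized counts summed to 29815559 in the lowest sample and 36489777 in the highest, and 20799 to 23783 genes were above 0. Read depth itself is not shown by such normalized values. The muscle markers were present throughout, with no gene of that list at 0. The Pdgfrb level was 1673 to 1848 normalized counts in controls. Knockout samples held 958 to 1628 and D489V samples 820 to 1062, so both mutant groups lay below every control. The D489V group held lower counts on average than the knockout, which does not tell how much working receptor each has. Xist, the RNA of the inactive X chromosome, stood at 3165 in knockout replicate 3 and at no more than 101 in the other samples, although every mouse is labelled male. That library therefore goes against its label. Changes in knockout of the genes given in full are shown with and without it. Marker lists, covariate fits and counts by unadjusted p hold it throughout. The labels number the samples but do not say whether each came from a separate mouse, so p-values measure the spread between these samples.

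These genes took 6.07% to 7.21% of all normalized counts in a sample. Per kilobase of exon, Aldoa (aldolase A, which splits fructose 1,6-bisphosphate) was the most abundant, with a mean of 211161 normalized counts per kilobase over the 15 samples. Eno3, the muscle enolase, followed at 138525, then Pgam2, the muscle phosphoglycerate mutase, at 80015. Next came Pygm, the muscle glycogen phosphorylase, at 69988 and Gapdh at 68947. Samples of some neighbours in this order overlapped. In controls Pygm ran from 45530 to 82204 and Gapdh from 57044 to 77933 per kilobase, so the order of these genes is not fixed. Aldoa and Eno3 overlapped in knockout, where the lowest Aldoa value was 166779 and the highest Eno3 value 172461 per kilobase. Eno3 and Pgam2 did not overlap in any group, since the lowest Eno3 value was 111465 and the highest Pgam2 value 98825. The length used joins all annotated exons of a gene, 840 bases for Pgam2, 1739 for Eno3 and 4133 for Gapdh. A transcript can be shorter than that, which understates its level, so the order also depends on the annotation.

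The forms shared with other tissues were far lower. Pfkm stood at 38692 per kilobase against 150 for Pfkl and 35.2 for Pfkp. Pgam1 stood at 168, and Eno1 at 1275. Among glucose transporters, Slc2a4, the insulin-responsive one, stood at 3741 and Slc2a1 at 78.0 per kilobase. Hexokinase 2 (Hk2) stood at 1465 and hexokinase 1 (Hk1) at 79.1. Aldoc was lowest, at 5.21 per kilobase. Near-identical copies and pseudogenes exist for Gapdh, Eno1, Pgk1, Ldha, Pgam1 and Aldoa, and how the counting treated reads shared with them is not given in the sources used here, so these levels are uncertain.

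**Figure D1:**
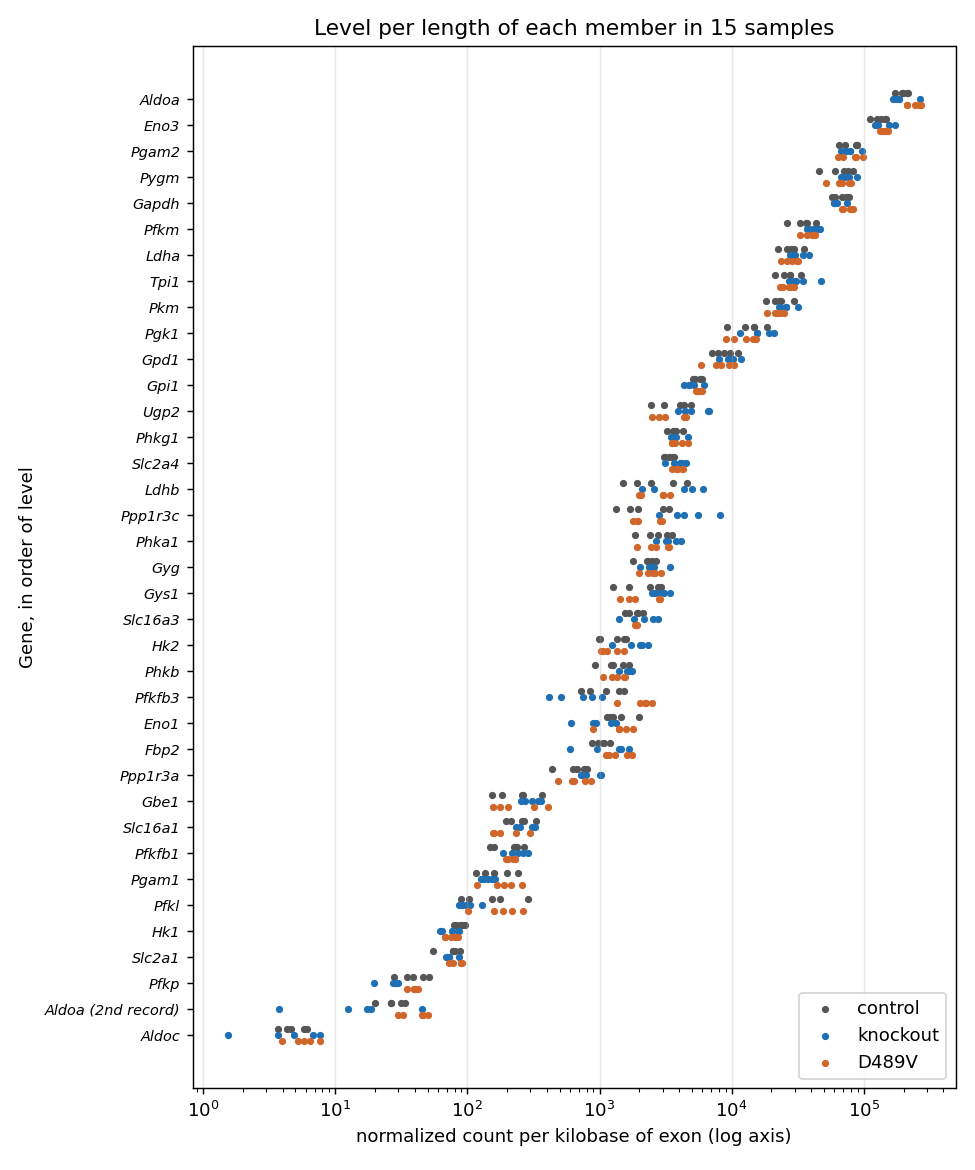
Level of each gene record in the 15 samples, as normalized counts per kilobase of exon on a log axis, with 1 point per sample (grey control, blue knockout, orange D489V) and genes ordered by mean level. Muscle forms such as Aldoa (mean 211161) stand at the top and Aldoc (5.21) at the bottom, and the 3 groups lie close together for most genes.

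The spread within a group was near that of all genes, and above that of other abundant genes. The median standard deviation of log2 values over the 37 records was 0.29 in control, 0.23 in knockout and 0.25 in D489V samples, against 0.28, 0.24 and 0.24 over the 15555 genes compared. Over the 6241 of these with a mean of 500 or more it was 0.20, 0.16 and 0.17. The most variable record in controls was Pfkl, the liver-type phosphofructokinase, with an SD of 0.67, and the least variable was Gpi1, glucose-6-phosphate isomerase, with 0.09. In knockout these were the second Aldoa record (1.16) and Phkb, a subunit of phosphorylase kinase (0.13). In D489V they were Gbe1, the glycogen branching enzyme (0.60), and Slc16a3, a lactate transporter (0.02).

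Samples of one genotype fell apart for some glycogen genes. Gys1, muscle glycogen synthase, held 6087 and 7938 normalized counts in controls 1 and 2, against 13170, 14099 and 11637 in controls 3 to 5. In D489V samples it held 8001, 8944 and 6792 in replicates 1 to 3, against 13520 and 13838 in replicates 4 and 5. All 5 knockout samples lay between 11975 and 16411. Controls 1 and 2 were the lowest controls for Hk2, Ugp2 and Ppp1r3c as well, at 5893 and 6004, 7470 and 9400, and 3622 and 4617. The labels give no variable that separates these samples. The summed endothelial markers split them the other way, at 23385 and 20446 in controls 1 and 2 against 15693 to 17014 in controls 3 to 5. In D489V they were 19060 to 21258 in replicates 1 to 3 against 17885 and 17643 in replicates 4 and 5. Their part in these levels was not tested.

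**Figure D2:**
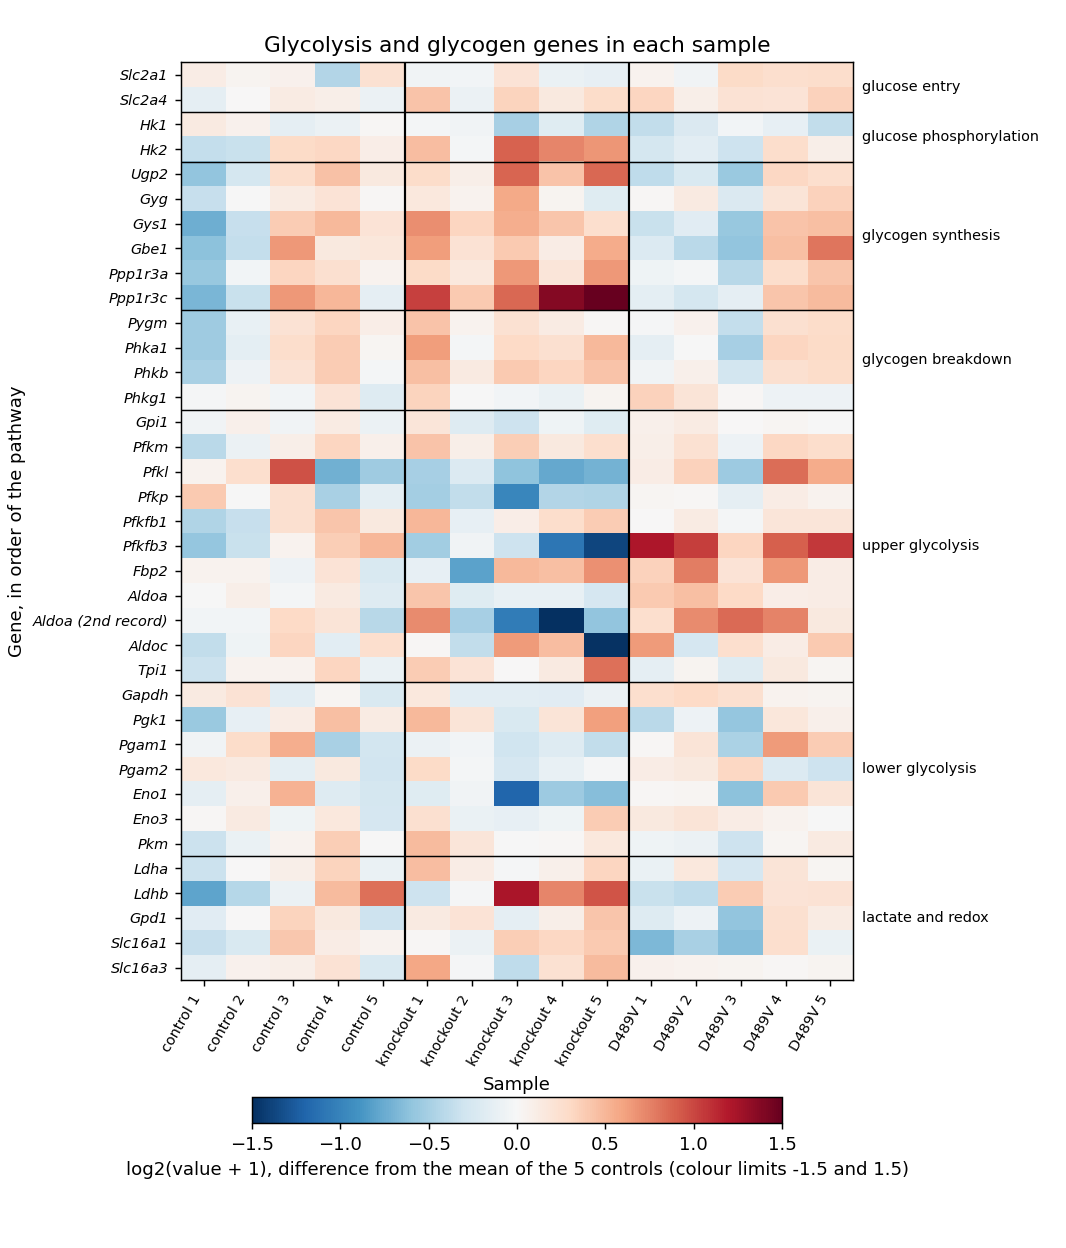
Each cell gives the log2(value + 1) of a gene in a sample minus the mean of the 5 controls, with samples in columns by group and genes in pathway order (red higher, blue lower, colour limits -1.5 and 1.5). Controls 1 and 2 and D489V replicates 1 to 3 are low for Gys1, Ugp2 and Gbe1, and the Pfkfb3 row is high in D489V and low in most knockout samples.

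Sequences before the start sites are shown for Pfkfb3, Pfkp, Ppp1r3c and Hk2. Pfkfb3 and Pfkp were lower in knockout than in D489V samples, and Ppp1r3c and Hk2 were higher. Pfkl and Ugp2, which also passed in that comparison (given below), are not printed. The 250 bases before each start come from RefSeq promoters on GRCm38.p6, which matched 34 of the 36 symbols with 50 starts. Capitals mark ACGTG (the core of the hypoxia response element), CACGTG (an E-box that holds ACGTG) and GGGCGG (a GC box), searched on both strands, and each sequence reads 5′ to 3′ on the strand of its gene.
Pfkfb3, upstream start, chr2:11553930-11554179, minus strand: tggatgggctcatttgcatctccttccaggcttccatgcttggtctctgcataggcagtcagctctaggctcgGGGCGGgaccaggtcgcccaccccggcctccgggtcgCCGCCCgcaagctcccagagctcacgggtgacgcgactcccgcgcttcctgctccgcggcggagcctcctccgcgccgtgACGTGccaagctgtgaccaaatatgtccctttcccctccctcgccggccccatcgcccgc
Pfkfb3, downstream start, chr2:11502091-11502340, minus strand: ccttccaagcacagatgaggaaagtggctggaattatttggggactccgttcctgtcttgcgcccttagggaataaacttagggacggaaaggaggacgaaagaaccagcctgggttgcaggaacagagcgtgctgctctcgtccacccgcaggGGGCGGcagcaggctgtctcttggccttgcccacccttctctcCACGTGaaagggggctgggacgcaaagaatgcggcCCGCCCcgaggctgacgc
Pfkp, chr13:6648772-6649021, minus strand: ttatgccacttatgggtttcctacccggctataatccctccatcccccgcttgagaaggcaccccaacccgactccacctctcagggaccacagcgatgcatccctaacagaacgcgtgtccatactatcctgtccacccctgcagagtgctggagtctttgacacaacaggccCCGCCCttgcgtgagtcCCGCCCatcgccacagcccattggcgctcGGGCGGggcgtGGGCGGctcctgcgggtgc
Ppp1r3c, chr19:36736605-36736854, minus strand: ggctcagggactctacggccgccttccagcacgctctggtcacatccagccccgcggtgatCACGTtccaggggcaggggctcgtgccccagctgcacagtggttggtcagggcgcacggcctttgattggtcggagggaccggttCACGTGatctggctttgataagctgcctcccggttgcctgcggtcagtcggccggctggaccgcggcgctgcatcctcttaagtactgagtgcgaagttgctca
Hk2, chr6:82774455-82774704, minus strand: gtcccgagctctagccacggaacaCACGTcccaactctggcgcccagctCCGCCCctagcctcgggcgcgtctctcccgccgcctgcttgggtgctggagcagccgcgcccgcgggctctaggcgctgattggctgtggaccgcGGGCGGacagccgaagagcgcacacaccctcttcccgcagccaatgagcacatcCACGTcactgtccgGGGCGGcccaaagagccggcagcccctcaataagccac

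Both Pfkfb3 starts held ACGTG and a GC box, and the downstream one also the E-box. Ppp1r3c held 3 ACGTG matches, of which an E-box counts on both strands, and no GC box. Pfkp held 4 GC boxes and no ACGTG, and Hk2 held 2 ACGTG matches and 3 GC boxes. The start of Pfkl, not printed, held none of these motifs. The upstream start of Ugp2 held 1 ACGTG match and 1 GC box, and its downstream start 2 GC boxes. Over all 50 starts, 18 held ACGTG (36%), against 16.6% of the 32851 promoters of this length. The E-box was in 6 (12%) against 6.0%, and the GC box in 24 (48.0%) against 32.7%. A match is a run of letters and not a site shown to be bound.

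Knockout against control asked what loss of PdgfrB did to these genes. None of the 37 records passed in this comparison at a Benjamini-Hochberg adjusted p under 0.05 in limma, where 1 of the 15234 genes tested passed (0.00656%). No record had groups that did not overlap, against 2.24% of all genes. An unadjusted p under 0.05 came for 8 records (21.6%), against 15.1% of all genes tested. Of these, 5 were higher and 3 lower, where 7.65% and 7.42% of all genes were. The median log2 change of the 37 records was 0.17, against 0.0106 over all genes. Changes are on the log2(value + 1) scale throughout, which understates those of low genes.

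The smallest p belonged to Ppp1r3c, which codes for a subunit that brings protein phosphatase 1 to glycogen. Controls held 3622, 4617, 9164, 8203 and 5288 normalized counts, and knockout samples 11875, 7656, 10554, 15050 and 22273. Only knockout replicate 2 lay within the control range. The means were 6179 ± 2386 and 13482 ± 5587 (SD, n = 5), with a log2 change of 1.12 (95% interval 0.45 to 1.79), an SE of 0.305 and a limma adjusted p of 0.280. Without knockout replicate 3 the log2 change was 1.18 (limma adjusted p 0.450).

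Pfkp, the platelet-type phosphofructokinase, had the next smallest p. Controls held 684, 518, 616, 371 and 470, and knockout samples 365, 401, 264, 384 and 380, so that control 4 alone reached the knockout range. The means were 532 ± 123 and 359 ± 54.5 (SD, n = 5). The log2 change was -0.55 (95% interval -0.93 to -0.17, SE 0.172, limma adjusted p 0.301), and -0.44 without knockout replicate 3 (limma adjusted p 0.468).

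Hk2, which phosphorylates glucose on entry, was the third. Controls held 5893, 6004, 9209, 9388 and 8077, and knockout samples 10389, 7384, 14000, 12525 and 11990. All knockout samples but replicate 2 exceeded every control. The means were 7714 ± 1689 and 11258 ± 2521 (SD, n = 5), a log2 change of 0.54 (95% interval 0.12 to 0.96, SE 0.191, limma adjusted p 0.305). Without knockout replicate 3 it was 0.45 (limma adjusted p 0.471).

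By role, all 6 genes of glycogen synthesis had a positive log2 change, from 0.13 for Gyg, the glycogenin that primes a new particle, to 1.12 for Ppp1r3c. None passed. Gys1 stood at 0.45, Ugp2, which makes UDP-glucose, at 0.51, Gbe1 at 0.38 and Ppp1r3a, the muscle glycogen-targeting subunit, at 0.38. All 4 genes of glycogen breakdown were positive too, with a median of 0.25. Of all 37 records 24 were positive, and of the 15234 genes tested 7841. Controls 1 and 2 were the lowest controls for each of the 6 synthesis genes, and no fit left out both. The 11 records of upper glycolysis had a median of -0.12, the 7 genes of lower glycolysis -0.02, and the 5 lactate and redox genes 0.19. With knockout replicate 3 left out, these medians were -0.07, 0.03 and 0.24, and the glycogen synthesis genes were still positive in 6 of 6, at 0.02 for Gyg. Eno1, the widely expressed enolase, held 7582 ± 1835 in control and 5361 ± 1544 in knockout (SD, n = 5), a log2 change of -0.52 (limma adjusted p 0.312), or -0.36 without knockout replicate 3 (limma adjusted p 0.474). Knockout replicate 3 held 3248 of Eno1, the lowest of the 15 samples, while its near-identical copy Eno1b held 260 there and 6 to 22 in the other 14 samples. Endothelial markers moved with this comparison: their summed normalized counts were 15693 to 23385 in controls and 9335 to 14700 in knockout. All 8 of them had an unadjusted p under 0.05, lower in knockout, and 0 passed over all genes. With the endothelial score as a covariate, Hk2 turned to a log2 change of -0.21, Ppp1r3c went from 1.12 to 0.18 and Pfkp from -0.55 to -0.11. That score was added after the data were seen. It did not overlap between knockout (-1.78 to -0.27) and control (-0.1 to 1.34), so such cells and the genotype cannot be told apart. Lymphocyte markers summed to 1280, 4029 and 1054 in knockout replicates 3 to 5, which had the 3 highest Hk2 values. The sum was 4535 in control 5 and 26 to 232 in the other 11 samples. Control 5 held 8077 of Hk2, inside the range of the other controls. In the same 3 knockout replicates the slow fibre sums were the highest of the group, at 236415, 177371 and 153543. Their endothelial sums were its lowest, at 9335, 10527 and 10249. The part of these cells and fibres in the values was not tested.

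D489V against control asked what the labelled active receptor did, with the same 5 controls as in the knockout comparison. Again none of the 37 records passed, where 9 of 15339 genes did (0.0587%). No record had groups apart, against 2.16% of all genes. An unadjusted p under 0.05 came for 5 records (13.5%), against 9.43% of all genes. Of these, 4 were higher and 1 lower, where 5.37% and 4.06% of all genes were. The median log2 change of the records was 0.04, against 0.0019 over all genes.

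The smallest p was that of Pfkfb3 (ENSMUSG00000026773, chromosome 2, 11471433 to 11554077, minus strand, GRCm38), which codes for an enzyme that makes the phosphofructokinase activator fructose 2,6-bisphosphate. Controls held 5469, 6456, 8472, 10553 and 11516 normalized counts, and D489V samples 18870, 16766, 10249, 15231 and 17046. All D489V samples but replicate 3 exceeded every control. The means were 8493 ± 2582 and 15632 ± 3275 (SD, n = 5). This gave a log2 change of 0.91 (95% interval 0.42 to 1.39, SE 0.222), with a limma adjusted p of 0.178. With limma array weights the log2 change was 1.04 and the limma adjusted p 0.0406. With the endothelial score as a covariate, added after the data were seen, they were 1.00 and 0.0301. These 2 fits passed 86 and 56 of all genes, against 9 in the main fit. In the other 21 of 23 alternatives Pfkfb3 did not pass, with a limma adjusted p of up to 0.420.

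Fbp2, the muscle fructose bisphosphatase, which runs the phosphofructokinase step backwards, came next. Its normalized counts were 1580, 1570, 1435, 1755 and 1294 in controls and 1937, 2597, 1748, 2379 and 1635 in D489V samples, with replicates 3 and 5 inside the control range. The log2 change was 0.42 (95% interval 0.12 to 0.71, SE 0.137, limma adjusted p 0.353). Slc2a4 held 10613, 11721, 12641, 12348 and 10973 in controls and 14579, 12371, 13528, 13359 and 14814 in D489V samples. Only D489V replicate 2 lay below the highest control. Its log2 change was 0.24 (95% interval 0.04 to 0.43, SE 0.0891, limma adjusted p 0.422). The 11 upper glycolysis records, which include the low Aldoc and second Aldoa record, had a median log2 change of 0.23, of which 10 were positive. Of all 37 records 27 were positive, and of the 15339 genes tested 7734. The 6 glycogen synthesis genes had a median of 0.02. Erythrocyte markers summed to 12462 to 22164 in D489V samples and 5682 to 8420 in controls, and 6 of 6 had an unadjusted p under 0.05, though 0 passed. Adipocyte markers had a positive log2 change in 6 of 6 (median 1.67, 3 with an unadjusted p under 0.05) and Schwann cell and nerve markers in 6 of 6 (median 0.59, 2 with an unadjusted p under 0.05), and 0 of either passed. Their part in these values was not tested.

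**Figure D3:**
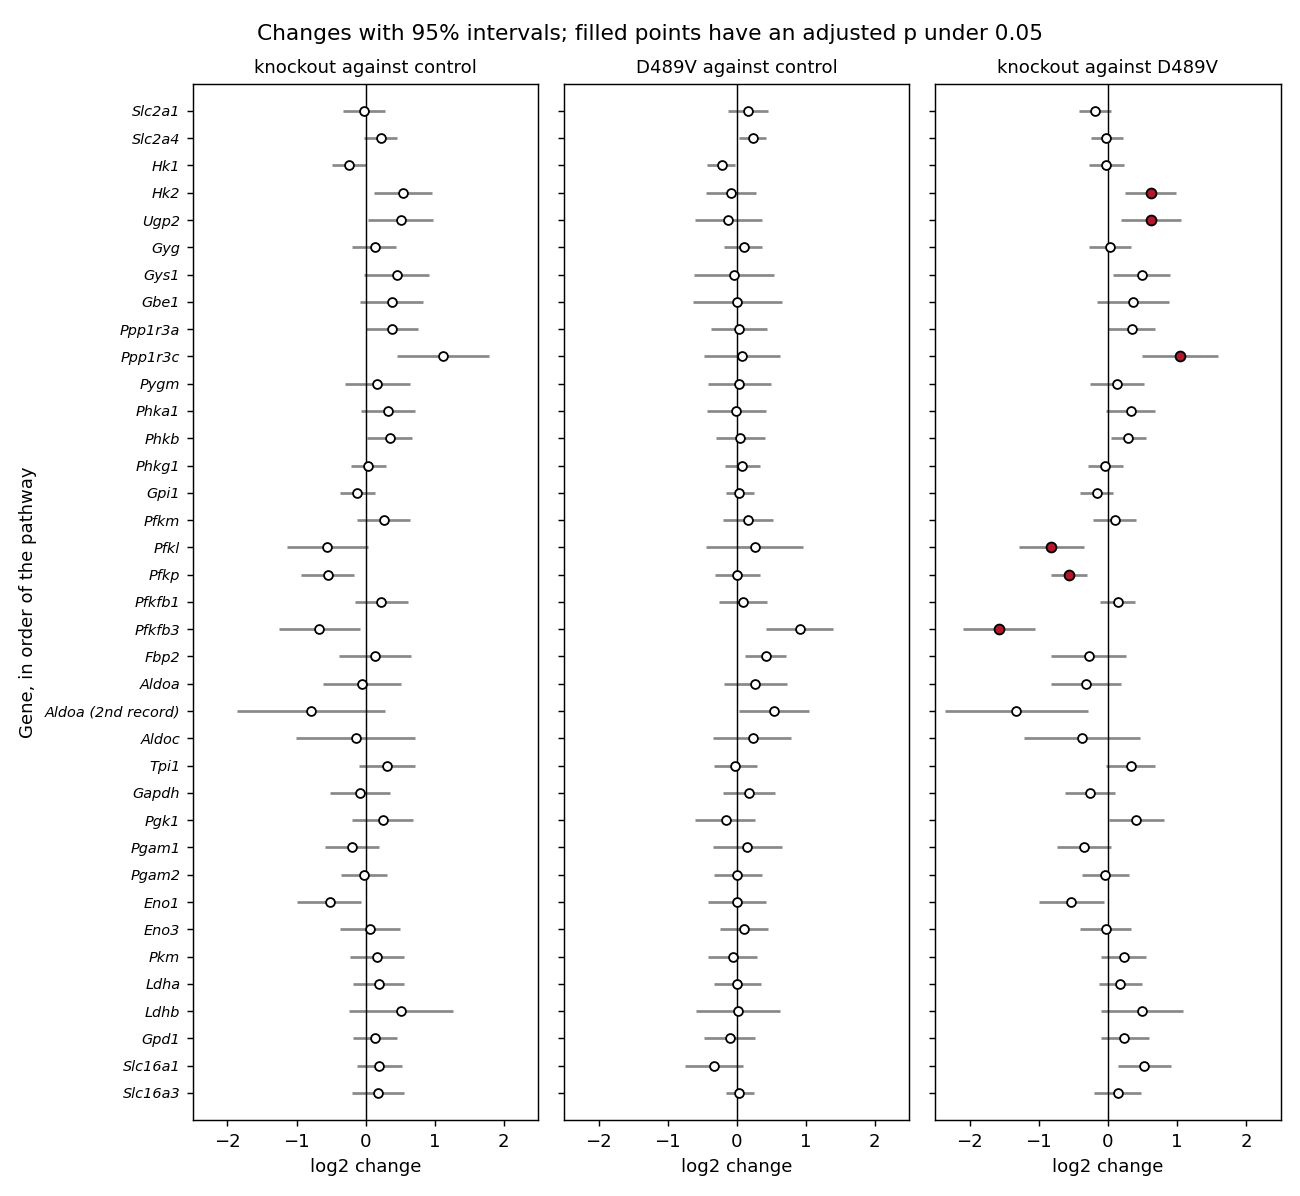
Log2 change (x axis) of each gene record with its 95% interval in the 3 comparisons, genes in pathway order. Filled points, all in the panel of knockout against D489V, have an adjusted p under 0.05, and the Pfkfb3 interval there runs from -2.10 to -1.05.

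The direct comparison of knockout against D489V was possible because the control columns of both tables were identical, which puts all samples on 1 scale. Of the 37 records, 6 passed (16.2%), where 3181 of 15299 genes did (20.8%), so the share was below the background. Ppp1r3c, Hk2 and Ugp2 were higher in knockout, where 10.5% of all genes were. Pfkfb3, Pfkp and Pfkl were lower in knockout, where 10.3% of all genes were. Groups did not overlap for Pfkfb3 and Pfkp, 5.41% of the records, against 13.9% of all genes. Both were lower in knockout, where 6.70% of all genes lay apart in that direction. An unadjusted p under 0.05 came for 13 records (35.1%, 8 higher and 5 lower), against 37.7% of all genes (19.4% higher and 18.3% lower). When knockout replicate 3 was left out, 4 records passed, Pfkfb3, Pfkp, Pfkl and Ppp1r3c. Fewer of all genes passed in that fit as well, 2273 of 15152. Without D489V replicate 3, 6 passed, these 4 with Eno1 and Pgam1, both lower in knockout. Of all genes 1989 of 15124 passed there (13.2%), so the 16.2% of records was above the background in that fit.

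Pfkfb3 showed the greatest difference. Its knockout values of 5711, 7855, 6597, 3853 and 3150 normalized counts all lay below the lowest D489V value of 10249. The knockout mean was 5433 ± 1937 (SD, n = 5), against 15632 ± 3275 in D489V, a log2 change of -1.57 (95% interval -2.10 to -1.05, SE 0.242, limma adjusted p 0.00325), 2.98-fold lower in knockout. The control mean of 8493 lay between them. Its 2 start regions are those printed above. Without knockout replicate 3 the log2 change was -1.66 (limma adjusted p 0.00489).

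Pfkp (ENSMUSG00000021196, chromosome 13, 6579768 to 6648777, minus strand) was also lower in every knockout sample, at 264 to 401, than in every D489V sample, at 530, 526, 472, 563 and 538. The log2 change was -0.56 (95% interval -0.82 to -0.30, SE 0.119, limma adjusted p 0.0104). Without knockout replicate 3, its lowest sample, it was -0.46 (limma adjusted p 0.0112). The D489V samples at 526 ± 33.3 were close to the control mean of 532, where the spread was wider (SD 123).

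Pfkl (ENSMUSG00000020277, chromosome 10, 77986947 to 78010083, minus strand) held 702, 860, 651, 578 and 604 in knockout and 1068, 1252, 677, 1768 and 1456 in D489V samples. Only D489V replicate 3 fell into the knockout range. Controls ran from 600 to 1914, wider than either mutant group. Its log2 change was -0.82 (95% interval -1.29 to -0.35, SE 0.216, limma adjusted p 0.0232). It no longer passed without knockout replicate 5 (limma adjusted p 0.0512) or D489V replicate 2 (limma adjusted p 0.0567), nor in the single fit over all 15 samples (limma adjusted p 0.0597). Leaving out knockout replicate 3 gave a log2 change of -0.80 for Pfkl (limma adjusted p 0.0430).

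Ppp1r3c (ENSMUSG00000067279, chromosome 19, 36731731 to 36736653, minus strand) stood at 5259, 4856, 5302, 7759 and 8073 in D489V samples. Knockout replicate 2, at 7656, was the only knockout sample within that range. The means were 13482 ± 5587 in knockout and 6250 ± 1535 in D489V (SD, n = 5), the latter close to the control mean of 6179. The log2 change was 1.05 (95% interval 0.50 to 1.59, SE 0.251, limma adjusted p 0.0161), 2.07-fold higher in knockout. Without knockout replicate 3 it was 1.11 (limma adjusted p 0.0236).

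Hk2 (ENSMUSG00000000628, chromosome 6, 82725025 to 82774454, minus strand) held 6317, 6748, 6083, 9080 and 8041 in D489V samples, and knockout replicate 2, at 7384, lay within that range. Its log2 change was 0.62 (95% interval 0.25 to 0.99, SE 0.169, limma adjusted p 0.0261). Leaving out any of 6 single samples lost the call, with limma adjusted p of 0.0538 to 0.0702 over those fits, knockout replicate 3 among them (log2 change 0.53, limma adjusted p 0.0551). The 6 are knockout replicates 3, 4 and 5 and D489V replicates 1, 2 and 3.

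Ugp2 (ENSMUSG00000001891, chromosome 11, 21321138 to 21371201, minus strand) held 13647, 11967, 20567, 15136 and 20488 in knockout and 8648, 9631, 7618, 13939 and 13369 in D489V samples. The 2 lowest knockout samples overlapped the D489V range. For Ugp2 the log2 change was 0.63 (95% interval 0.19 to 1.06, SE 0.200, limma adjusted p 0.0441). It lost the threshold in 7 of the 10 fits without 1 sample, with limma adjusted p of 0.0506 to 0.109 there. Those fits left out knockout replicate 1, 3, 4 or 5 or D489V replicate 1, 2 or 3. The call was also lost with no filter on low values, with quantile normalization, with no variance trend and in the single fit over 15 samples, with limma adjusted p of 0.0656, 0.0572, 0.0684 and 0.0614. Without knockout replicate 3 the log2 change was 0.54 (limma adjusted p 0.0915).

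Just short of the threshold stood Slc16a1, a lactate transporter, at a log2 change of 0.53 (limma adjusted p 0.0503). The second Aldoa record had a log2 change of -1.33 (limma adjusted p 0.0647) and Gys1 0.49 (limma adjusted p 0.0845). The muscle form Pfkm, at 139511 ± 14043 in knockout and 130454 ± 13638 in D489V (SD, n = 5), had a log2 change of 0.10 (limma adjusted p 0.649). Aldoa and Gapdh, at the top of the levels, had log2 changes of -0.32 and -0.26 (limma adjusted p 0.336 and 0.279).

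**Figure D4:**
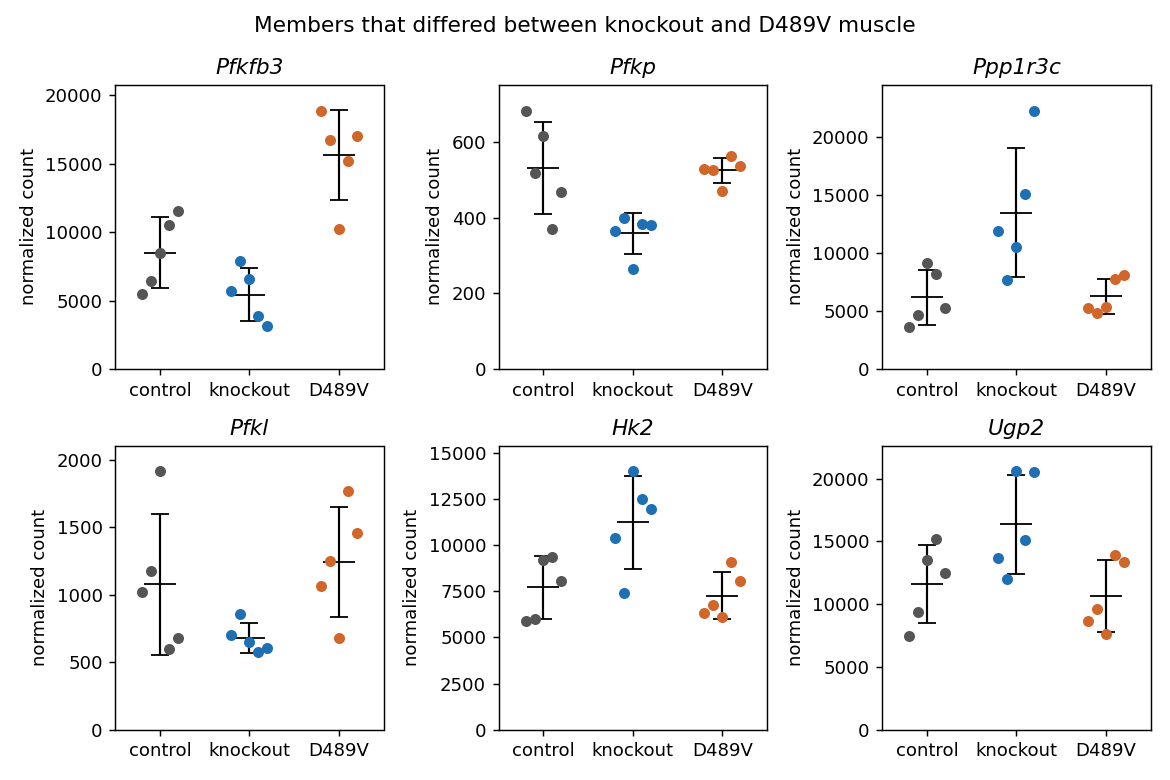
Normalized counts (y axis from 0) of the 6 genes that passed in knockout against D489V, 1 point per sample, with the mean and SD of each group of 5 in black. Knockout and D489V points do not overlap for Pfkfb3 and Pfkp, and control points spread over much of the range of Pfkl.

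Marker genes of other cell types moved with the same groups. The summed normalized counts of 8 endothelial markers ran from 9335 to 14700 in knockout, from 17643 to 21258 in D489V and from 15693 to 23385 in control samples, and 8 of 8 passed, lower in knockout than in D489V. Adipocyte markers summed to 7739 to 14443 in knockout, 18733 to 57504 in D489V and 6072 to 44878 in controls, and 5 of 6 passed, lower in knockout. Schwann cell and nerve markers (6 of 6 passed, lower) and the tested erythrocyte markers (5 of 5 passed, lower) ran the same way, at sums of 6245 to 9832 against 12324 to 49785 and 3175 to 8038 against 12462 to 22164. Of 8 mural cell markers 4 passed, 1 higher and 3 lower in knockout. Slow fibre markers spread widely within each group, with lowest and highest sums of 22813 and 223687 among controls, 11703 and 236415 among knockout samples, and 50386 and 239851 among D489V samples. Of the fibre genes, 1 of 10 slow and 0 of 12 fast passed. By unadjusted p these counts were 1 and 1, and the slow gene was Casq2, higher in knockout. Of the fibro-adipogenic, lymphocyte and macrophage markers 0 of 6, 0 of 4 and 0 of 6 tested passed, and of the satellite cell markers 1 of 4. No gene of these lists was at 0 in every sample. D489V replicate 3 stood apart in the nerve list, at 49785, against 12324 to 15028 in the other D489V samples.

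With the endothelial or the adipocyte score as a covariate, alternatives chosen after the data were seen, 0 of the 37 records passed, while 21 (0.137%) and 22 (0.144%) of all genes did. With the endothelial score Hk2 and Ugp2 turned to -0.25 and -0.31 and Ppp1r3c came to 0.07, while Pfkfb3, Pfkl and Pfkp stood at -1.01, -0.71 and -0.31. With the adipocyte score Pfkl turned to 0.07, while Ppp1r3c, Ugp2, Hk2, Pfkfb3 and Pfkp stood at 1.14, 0.69, 0.48, -0.81 and -0.19. Knockout and D489V samples did not overlap on either score, so such cells and the genotype cannot be told apart here. When the fit held the slow fibre score, 10 records passed, beside 23.4% of all genes.

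Ratios of a muscle-enriched to a more widely expressed gene of the same step, taken within a sample, did not depend on scaling. Of 8 ratios in 3 comparisons, 0 of 24 passed in an exact two-sided permutation test adjusted over the 24. The log2 ratio of Pfkm to Pfkp was 8.61 ± 0.35 in knockout and 7.95 ± 0.08 in D489V (SD, n = 5), with every knockout sample above every D489V sample. The difference of 0.66 gave the smallest p that 5 against 5 samples allow, 0.00794 by exact permutation, and 0.190 once adjusted. Against control, where the ratio was 7.80 ± 0.59, the difference of 0.81 had an exact permutation p of 0.0317 (adjusted 0.317). Hk2 to Hk1 was 4.12 ± 0.54 in knockout and 3.34 ± 0.43 in control (SD, n = 5), a difference of 0.78 (exact permutation p 0.0397, adjusted 0.317). The 3 unadjusted p under 0.05 among the 24 are these. With knockout replicate 3 left out the differences were 0.53 for Pfkm to Pfkp against D489V, 0.67 against control, and 0.63 for Hk2 to Hk1 against control, with exact permutation p of 0.00794, 0.0635 and 0.0952. A single ratio at the smallest possible p cannot pass once adjusted over 24 tests, so the absence of calls says little.

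**Figure D5:**
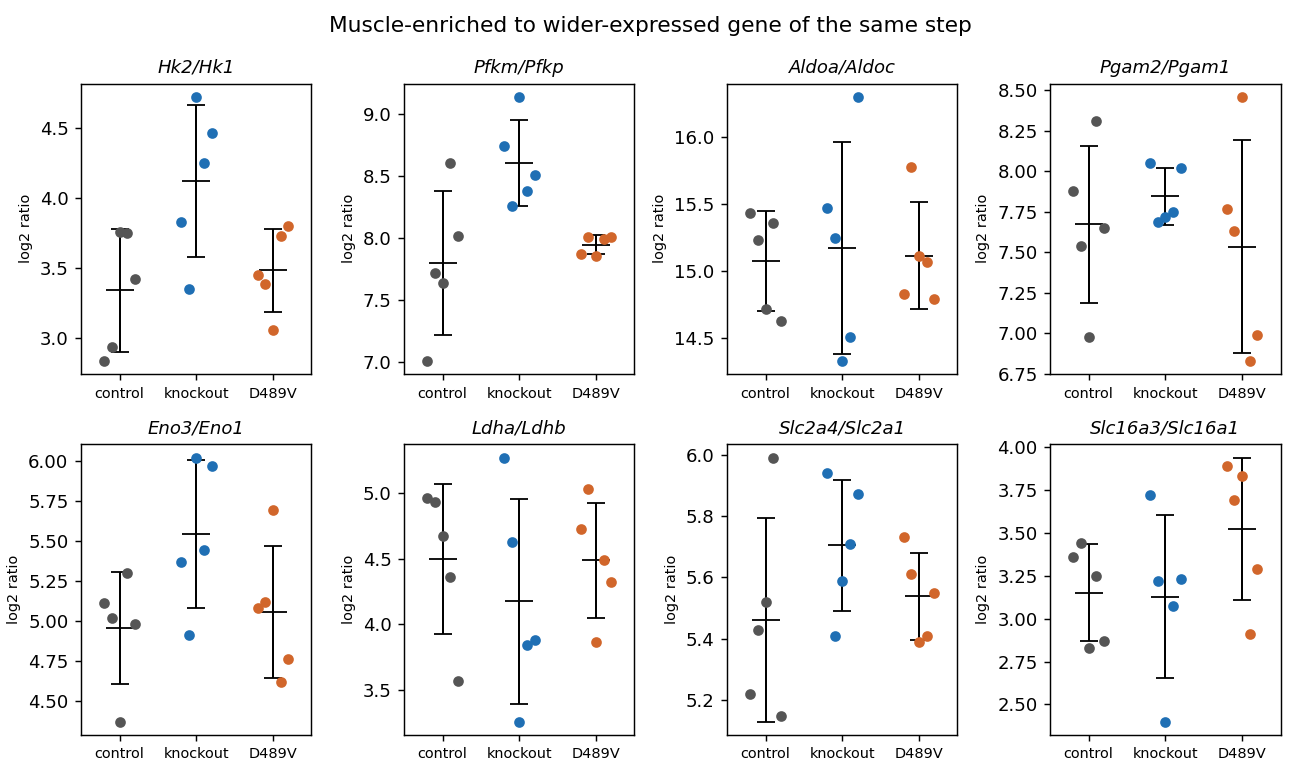
Log2 ratio of (value + 1) of a muscle-enriched to a more widely expressed gene in each sample (y axes do not start at 0), with the mean and SD of each group of 5 in black. The Pfkm to Pfkp panel shows every knockout point above every D489V point, at means of 8.61 and 7.95.

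Of 66 other genes of the pathway, 59 were tested. Against control, 0 passed in knockout and 0 in D489V by limma, while 11 and 3 had an unadjusted p under 0.05. That is 18.6% against 15.1% of all genes in knockout, and 5.08% against 9.43% in D489V. Of the 11, 10 were higher, and of the 3, 1. Over all genes 7.65% were higher and 7.42% lower in knockout, and 5.37% and 4.06% in D489V. In knockout against D489V 15 passed (25.4% against 20.8% of all genes), 11 higher and 4 lower in knockout, where 10.5% and 10.3% of all genes were. Groups did not overlap for 4 of the 59 (6.78%), a smaller share than the 13.9% of all genes. Nhlrc1 codes for malin, a ubiquitin ligase that acts on glycogen-targeting proteins and whose loss gives Lafora disease. It held 320, 211, 257, 296 and 231 in knockout and 103, 129, 123, 130 and 146 in D489V samples, so the groups did not overlap. Its log2 change was 1.05 (SE 0.143, limma adjusted p 0.00218). Pfkfb4, another maker of fructose 2,6-bisphosphate, went the other way to Pfkfb3. It held 1893 ± 245 in knockout and 1377 ± 56.8 in D489V (SD, n = 5), without overlap, a log2 change of 0.45 (limma adjusted p 0.00957). Pgm1, phosphoglucomutase, which links glycogen to glycolysis, was higher in knockout by 0.52 (limma adjusted p 0.0167), again without overlap. Stbd1, a glycogen-binding protein, was higher by 0.63 (limma adjusted p 0.0176).

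Pygl and Gys2, the liver forms of glycogen phosphorylase and synthase, were lower in knockout. Pygl held 521, 446, 176, 161 and 188 in knockout and 1284, 1075, 342, 2010 and 2025 in D489V samples, with D489V replicate 3 inside the knockout range. Its log2 change was -2.12 (limma adjusted p 0.0137). Gys2 held 16.6 ± 9.84 in knockout and 62.4 ± 26.5 in D489V (SD, n = 5), a log2 change of -1.91 (limma adjusted p 0.0187). Pygl was low in controls 4 and 5, at 198 and 183, which also had the lowest adipocyte sums of the controls, at 6072 and 7529. Control 1 had the highest adipocyte sum of the controls, 44878, and 1202 of Pygl, while control 3 held 2291 at a sum of 26193. Fabp4 made up most of both sums, at 35760 and 17949. Plin1 alone of that list was higher in control 3, at 4087 against 3129. With the adipocyte score as a covariate Pygl and Gys2 turned to 0.59 and 0.24. Knockout and D489V samples did not overlap on that score, so fat cells and the genotype cannot be told apart. The part of fat cells in these values was not tested. Without D489V replicate 1, Pgm1, Stbd1 and Gys2 no longer passed (limma adjusted p 0.0508, 0.0519 and 0.0530), and Gys2 missed in the single fit over 15 samples as well (limma adjusted p 0.0536). With knockout replicate 3 left out all 6 passed, with log2 changes of 1.05 for Nhlrc1, 0.49 for Pfkfb4, 0.54 for Pgm1, 0.72 for Stbd1, -1.97 for Pygl and -1.95 for Gys2.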

How the data were processed

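The deposited values are treated as a score. They are normalized gene counts, rounded to integers by the authors, in 2 tables of 55536 genes whose 5 control columns were identical. The submitters' processing notes list Trim Galore 0.6.0, cutadapt, FastQC, STAR 2.7.0e, DESeq2 1.26.0 and GRCm38. The counting tool, its strand setting and the annotation are not given in the sources used here. Since the values are no raw counts, no count model was run.

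All gene identifiers matched GENCODE M21 on GRCm38, which gave coordinates and exon lengths. Each comparison of 5 against 5 samples was fitted across genes on log2(value + 1) by limma 3.58.1 under R 4.3.3. The two-sided moderated test used a mean-variance trend, and genes entered where 5 or more of the 10 samples held at least 10. A gene passed at a Benjamini-Hochberg adjusted p under 0.05. The fit was tested on simulated data. Intervals are 95%. Group fold changes on 5 samples a group carry only the spread between samples.

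Genes given in full were those that passed, or, where fewer than 3 did, the 3 with the smallest p. Of other pathway genes, the 6 with the smallest p among those that passed are named. The members and lists were chosen with earlier results of these data known. Alternatives changed the pseudocount, filter, scaling, variance model, weights, samples and covariates. Python 3.11.15 with numpy 2.4.6, pandas 2.3.3 and matplotlib 3.10.9 was used.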

Additional observations from a re-analysis of the deposited data

Results flagged for a closer look

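In each group of 5 samples, a value was taken as far from the others when its gap to the nearest one exceeded 0.71 of the group's range. Chance flags about 1 in 20 groups. Over the 111 groups of values tested, that is 5.55, and 5 were found, so their number is what chance gives. Slc2a1, the widely expressed glucose transporter, held 193 normalized counts in control replicate 4, against 271 to 308 in the other controls. It held 303 in knockout replicate 3, against 241 to 256 in the other knockout samples. Pfkp held 264 in knockout replicate 3, against 365 to 401. Aldoa held 769810 in knockout replicate 1, against 485495 to 535897, and Gapdh held 309522 in the same sample, against 246511 to 260628. Knockout replicate 3 is the sample that goes against its label in Xist.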

How the results depend on the processing

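Leaving out single samples moved the number of records that passed in knockout against D489V between 3 and 8, from 6. The share of all genes that passed moved as well, between 9.26% without D489V replicate 1 and 24.4% without D489V replicate 4, from 20.8%. The number of records was 3 without knockout replicate 5 or D489V replicate 2, where Pfkfb3, Pfkp and Ppp1r3c were the 3. In these fits 14.2% and 10.1% of all genes passed. In knockout against control and D489V against control it stayed 0 over those fits. In knockout against control 0 passed in all 23 alternatives. In D489V against control Pfkfb3 alone passed with array weights and with the endothelial score, 1 record each, and otherwise 0. These 2 fits passed 0.561% and 0.365% of all genes. In knockout against D489V 10 passed with the slow fibre score, 0 with the adipocyte score and 0 with the endothelial score. Of all genes 23.4%, 0.144% and 0.137% passed there. The median log2 change of the records was -0.04 in knockout against control with the endothelial score, and 0.29 in knockout against D489V with the adipocyte score. What lies behind these shifts was not tested. With the endothelial score Hk2 turned to -0.21 in knockout against control and to -0.25 in knockout against D489V, and Ugp2 to -0.31 there. With the adipocyte score Pfkl, Pygl and Gys2 turned to 0.07, 0.59 and 0.24. Both scores were added after the data were seen.

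A replicate block in the fit gave 0, 0 and 9 records that passed in the 3 comparisons, in the order given, against 0, 0 and 6. Of all genes 0.00656%, 0.0456% and 14.4% passed with the block, against 0.00656%, 0.0587% and 20.8% in the main fits. Deviations of same-numbered samples correlated at -0.21 to 0.24, -0.40 to 0.39 and -0.11 to 0.10. Of 10 samples, 3, 4 and 2 correlated best with their own number. These values gave no clear sign of pairs, but so few samples cannot exclude them. Of 275 values for the 12 results that passed, 227 kept the call, 43 lost it and 5 changed sign. Of 138 values for the 6 that did not, 135 stayed without a call and on their side of 0, 2 gained one and 1 changed sign, whatever the size of the change. The ratio tests could hardly give a call, so their alternatives are no sign of stability. Read depth is unknown, so no limit from counting error is given for the low genes, Aldoc and the second Aldoa record.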
